A study of Mus musculus with 7 samples.

Results

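The insulin-like growth factor (IGF) axis was followed in the mammary gland through 10 genes, taken by symbol from the 27998 genes of the count matrix: the ligands Igf1 and Igf2, the receptors Igf1r and Igf2r, and the binding protein genes Igfbp2, Igfbp3, Igfbp4, Igfbp5, Igfbp6 and Igfbp7. Each symbol matched a single gene. No rule on measured values picked the genes, but earlier results of these data were known when they were chosen. Droplet-based scRNA-seq had been run on mammary glands of virgin females in diestrus, 3 young mice (A to C, 3 to 4 months) and 4 aged mice (A to D, 13 to 14 months), whose genetic background was mixed from FVB, 129 and C57BL/6J. The labels name no transgene or treatment, and each lettered sample was 1 library. The matrix held 13684 cells in 13 cell types assigned by the authors, among them alveolar (AV), hormone-sensing (HS) and mixed HS-AV luminal cells, myoepithelial cells, fibroblasts, vascular endothelial cells, pericytes and the macrophage groups Ma and Mb.

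IGF1 and IGF2 are secreted growth factors that act through the tyrosine kinase receptor encoded by Igf1r, while the IGF2 receptor binds IGF2 and carries it to the lysosome. As a family, the binding proteins can hold the ligands in blood and tissue, limit or prolong access to the receptor, and be cut by proteases such as pappalysin. Binding of the ligands by each protein was not measured here, and transcript levels do not give it. In the mammary gland, stromal IGF1 is known to act downstream of growth hormone in ductal growth, and IGFBP5 is known as a secreted product of the involuting epithelium.

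A library held 6652599 to 16999625 unique molecular identifiers (UMIs), with a median of 4758.5 to 7109.5 UMIs per cell. Library pairs shared 1 to 10 cell barcodes, over 21 pairs. The young and aged libraries wrote their barcodes in different forms, with 16 barcode letters in each. The labels name no batch, and whether the libraries of the 2 ages were handled apart is not known. If they were, age could not be told apart from handling. Of 42 marker genes of 12 cell types, 38 were highest in their own type; Prlr, Pgr and Esr1 were highest in HS-AV cells and Cd3g in NK cells. Fibroblasts made up 14.6% to 36.1% of the cells of a young mouse and 1.09% to 7.34% of those of an aged mouse. Transcripts of fibroblast markers were also met in other cell types, more in young than in aged libraries: 11.5% to 31.2% of young and 1.73% to 6.51% of aged AV cells held at least 1 UMI of Col1a1, Col1a2, Col3a1, Lum, Dpt or Clec3b. For members called with age within another cell type, the result in the cells that held none of these UMIs is therefore given alongside. Leaving cells out in this way cannot remove other fibroblast transcripts carried into the cells that are kept. The tests between cell types used all cells and were not repeated in this way.

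The 6 binding protein genes and the IGF genes lay on 7 mouse chromosomes (GRCm38, GENCODE vM21). Igfbp2 (chr1:72824503-72852474, plus strand) and Igfbp5 (chr1:72857932-72874884, minus strand) faced each other tail to tail with 5457 bases between them. Igfbp3 (chr11:7206086-7213923, minus strand) lay 3539 bases from Igfbp1, and Igfbp4 (chr11:99041244-99054392, plus strand) was elsewhere on that chromosome. Igf2 (chr7:142650766-142666816, minus strand) was 72622 bases from H19, and Igf1r (chr7:67952827-68233668, plus strand) was on the same chromosome. Igf1 spanned chr10:87858265-87937042 (plus strand), Igf2r chr17:12682406-12769664 (minus strand), Igfbp6 chr15:102144362-102149511 (plus strand) and Igfbp7 chr5:77349240-77408041 (minus strand).

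The promoters of Igfbp3, Igfbp4 and Igfbp5 are shown because these genes moved in different directions with age in the cell types below. Each line gives the 250 bases before the RefSeq transcription start (GRCm38.p6), read along the gene, with a TATA-like motif in capitals. The windows were chr11:7213924-7214173 (minus strand) for Igfbp3, chr11:99040994-99041243 (plus strand) for Igfbp4 and chr1:72874866-72875115 (minus strand) for Igfbp5.
Igfbp3: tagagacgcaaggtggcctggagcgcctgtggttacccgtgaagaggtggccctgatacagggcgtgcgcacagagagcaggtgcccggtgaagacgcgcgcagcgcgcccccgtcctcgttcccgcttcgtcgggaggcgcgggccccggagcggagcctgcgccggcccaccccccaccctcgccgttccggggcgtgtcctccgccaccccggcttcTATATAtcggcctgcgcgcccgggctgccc
Igfbp4: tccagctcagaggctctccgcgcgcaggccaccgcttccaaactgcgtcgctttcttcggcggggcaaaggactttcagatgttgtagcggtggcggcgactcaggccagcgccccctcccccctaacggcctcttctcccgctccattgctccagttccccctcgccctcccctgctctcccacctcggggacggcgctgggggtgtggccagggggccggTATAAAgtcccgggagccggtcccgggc
Igfbp5: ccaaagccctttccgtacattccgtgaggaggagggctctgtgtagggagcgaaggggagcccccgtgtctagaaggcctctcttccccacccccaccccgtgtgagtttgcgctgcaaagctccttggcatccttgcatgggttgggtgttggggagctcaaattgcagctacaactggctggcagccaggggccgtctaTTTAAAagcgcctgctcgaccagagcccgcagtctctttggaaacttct
The motif was TATATA in Igfbp3, 30 bases before the start, TATAAA in Igfbp4, 28 bases before it, and TTTAAA in Igfbp5, 49 bases before it. Among 32851 mouse promoters, on either strand, TATAAA occurred in 12.4%, TTTAAA in 12.1% and TATATA in 5.25%; the latter pair read the same on both strands, and none of the matches overlapped. GC content was 73.2% with 32 CG pairs for Igfbp3, 69.2% with 22 for Igfbp4 and 58.8% with 10 for Igfbp5. The letters GGGCGG, a core of GC boxes, were in none of these windows and in 32.7% of all promoters. A match describes these letters only.

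Levels by cell type were given as CPM, the UMIs of a gene in every 1000000 UMIs of all cells of 1 type summed in 1 mouse, for mice with at least 3 such cells. Because 1 UMI stands for 1 captured transcript end, CPM was not divided by gene length. The cell types were clustered on all genes, so the order of types is a description.

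Igf1, the ligand of the axis that is best known in postnatal growth, was highest in Ma macrophages, at 228, 168 and 194 CPM in the 3 young mice that had enough of these cells. Fibroblasts followed at 127.4 ± 34.97 CPM (SD, n = 7) and were above vascular endothelial cells in each mouse but Aged D; the latter held 63.5 ± 16.3 CPM (n = 7). Ma macrophages and fibroblasts overlapped, since Ma macrophages were the higher in 2 of 3 mice. At least 1 Igf1 UMI was found in 52.5% of Ma macrophages, 34.5% of fibroblasts (95% Wilson interval 32.5% to 36.6%, counting error only) and 21.6% of vascular endothelial cells, against 2.43% of AV cells, at median depths of 4347, 4414, 4907 and 6632 UMIs per cell.
Igf2 was sparse, with 187 UMIs in all libraries. It was met mainly in pericytes (22.5 ± 19.9 CPM, n = 7) and vascular endothelial cells (12.5 ± 14.8 CPM, n = 7), and the former were above the latter in 4 of 7 mice.

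The signalling receptor gene Igf1r was spread over stroma and epithelium. Pericytes held 52.7 ± 20.2 CPM, myoepithelial cells 42.5 ± 18.5, fibroblasts 35 ± 13.9, vascular endothelial cells 33.2 ± 17.1 and AV cells 27.0 ± 10.0 (each n = 7), and these neighbours overlapped. HS cells lay far below, at 2.38 ± 2.20 CPM with a highest mouse of 6.56, under the lowest AV mouse at 14.7. The scavenging receptor gene Igf2r was low in every type and did not exceed a mean of 35.1 ± 26.4 CPM, in HS-AV cells of 6 mice. In the luminal pair its order was the opposite of that of Igf1r, with 17.8 ± 6.81 CPM in HS cells and 10.1 ± 6.10 in AV cells, though the ranges of the types overlapped.

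Each binding protein gene had its own distribution. Igfbp6 was nearly restricted to fibroblasts, at 3163 ± 831 CPM (n = 7), and the next type, Ma macrophages, held 168 ± 73.3 (n = 3) with no overlap. The 6 fibroblast markers summed to 604 to 1461 CPM in young Ma macrophages, and the source of their Igfbp6 UMIs was not tested. An Igfbp6 UMI was found in 98.2% of fibroblasts and 3.26% of AV cells. Igfbp4 was also highest in fibroblasts, at 1011 ± 197 CPM, above pericytes (497 ± 192) in 7 of 7 mice. Pericytes, lymphatic endothelial cells (485 ± 108, n = 5), Ma macrophages (413 ± 75.4, n = 3) and vascular endothelial cells (406 ± 244) followed with overlapping ranges, and AV cells were at 10.8 ± 9.82.
Igfbp7, also known as a protein of vessel walls, was highest in pericytes at 6713 ± 1222 CPM, with a UMI in 100% of 349 cells. Vascular endothelial cells held 4340 ± 479 CPM and fibroblasts 1989 ± 700, and the order pericytes, vascular endothelial cells, fibroblasts held in 7 of 7 mice. Igfbp3 was highest in myoepithelial cells, at 374 ± 197 CPM, and fibroblasts (108 ± 87.5) were below them in 6 of 7 mice. A UMI of Igfbp3 was found in 55.3% of myoepithelial cells (median depth 4431 UMIs) and 1.56% of AV cells.
Igfbp5 was shared among fibroblasts (1093 ± 427 CPM), AV cells (1006 ± 750) and myoepithelial cells (637 ± 590), whose ranges overlapped, while HS cells held 42.7 ± 29.9, below AV cells in every mouse. Taking the 6 genes together in each type, Igfbp7 made up 89.6% of the binding protein UMIs of vascular endothelial cells and 88.0% of those of pericytes, Igfbp5 85.2% of those of AV cells and Igfbp6 42.0% of those of fibroblasts (means over mice).

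**Figure D1:**
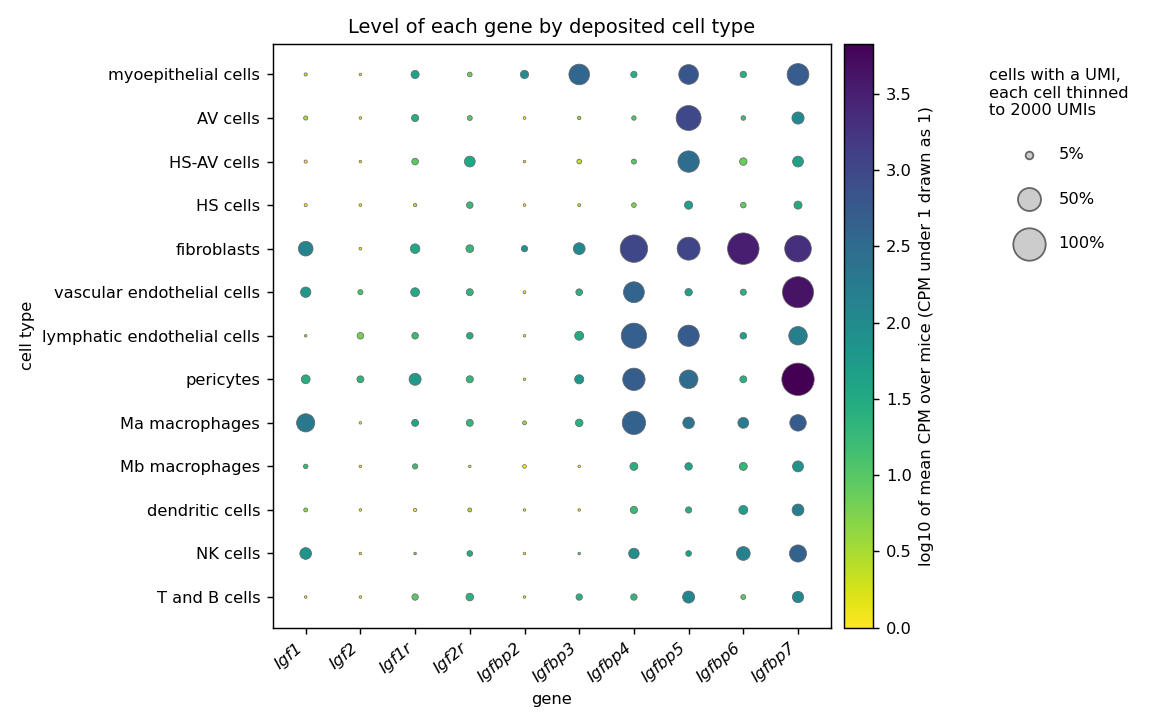
Mean level of the 10 genes over mice in the 13 deposited cell types. Colour gives the log10 of mean CPM and circle area the percent of cells with a UMI after each cell was thinned to 2000 UMIs; Igfbp6 is darkest in fibroblasts (3163 CPM), Igfbp7 in pericytes (6713 CPM) and Igfbp3 in myoepithelial cells (374 CPM).

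Igfbp2 stood apart in being held by few cells. Its mean level was 87.9 ± 140 CPM in myoepithelial cells and 77.3 ± 60.9 in fibroblasts, with SDs near or above the means, and at most 3.37 CPM in each other type. In fibroblasts 100 of 1993 cells held 100% of its 555 UMIs, and 31 cells had 5 UMIs or more, up to 49 in a single cell. In myoepithelial cells 84 of 1670 cells held 81.1% of 450 UMIs. The 21 myoepithelial cells with 5 UMIs or more came from Young A (3 cells), Young C (8) and Aged B (10), and none from the other 4 mice.

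Genes with a like distribution were sought among 5292 genes that reached 50 CPM in some type, by Pearson's r of log2(mean CPM + 1) over the 13 types. The 3 nearest were Efemp1 (0.982), Clec3b (0.970) and Opcml (0.946) for Igfbp6, Sparc (0.938), Col4a1 (0.936) and Adamts4 (0.914) for Igfbp7, and Pnp (0.959), Sepw1 (0.943) and Fbxo30 (0.930) for Igfbp4. For Igfbp3 they were Pxk (0.906), Adamts1 (0.899) and Cald1 (0.891), for Igfbp2 Wnt10a (0.946), Ptx3 (0.908) and Spon2 (0.885), and for Igfbp5 Nfix (0.866), Golim4 (0.844) and Rhou (0.833). Igf1 was nearest to AI607873 (0.893), Il3ra (0.876) and Ifi204 (0.875), and Igf1r to Mafk (0.857), Dnajb9 (0.8498) and Ski (0.834). Clec3b was 1 of the fibroblast markers used above. All 13 points shared the same libraries, and Igf2 and Igf2r were not searched because they did not reach 50 CPM.

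The first question on age was whether the axis changed within epithelial cells. For each mouse, the counts of the cells of 1 type were added up, and the sums were tested with the edgeR quasi-likelihood test, with Benjamini-Hochberg adjustment over all genes tested; a gene was called at an adjusted p under 0.05 and at least 1.5-fold, and log2 fold changes are aged over young. The mice are the replicates, so the p-values set the age difference against the variation between these mice. An SE is the size of the log2 fold change divided by the square root of the F statistic of the test. The fold changes include a scaling between the sums (TMM) that the CPM values do not. A fold change can therefore differ in size, and when small in sign, from the CPM beside it.

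In myoepithelial cells the binding proteins changed composition: Igfbp3 rose with age while Igfbp2, Igfbp4, Igfbp5, Igfbp6 and Igfbp7 fell. Of 7 members that passed the filter on low counts, 6 were called, where 27.6% of the 6740 genes tested were called; the median log2 change was -1.85 over the members and 0.01 over all genes tested.
Igfbp5 stood at 922, 1543 and 1230.3 CPM in the young mice and at 132, 370.3, 134 and 131 CPM in the aged mice. The groups were far apart, with the highest aged mouse below the lowest young one, and the log2 fold change was -2.53 ± 0.32 (SE, adjusted p = 5.58e-05). After thinning, 75.4%, 85.0% and 75.9% of young and 19.5%, 38.5%, 19.2% and 19.7% of aged myoepithelial cells had an Igfbp5 UMI.
Igfbp3 went the other way, from 231, 172 and 259.7 CPM in young mice to 735, 478, 282 and 463 CPM in aged mice. The groups did not overlap, although Aged C lay close to Young C (log2 fold change 1.22 ± 0.27, adjusted p = 0.00303). The share of cells with an Igfbp3 UMI after thinning was 27.5% to 31.5% in young mice and 32.0% to 49.2% in aged mice.
Igfbp7 was lower in each aged mouse, with 868, 678 and 893 CPM in young against 227, 426, 337 and 178 CPM in aged mice (log2 fold change -1.38 ± 0.25, adjusted p = 0.000845). As a share of the 6 binding proteins in these cells, Igfbp3 went from 8.79% in young to 48.4% in aged mice and Igfbp5 from 48.9% to 17.97%, while Igfbp7 held 32.5% and 29.0%. The summed level of the 6 genes was 2209, 2463 and 2915 CPM in young mice and 1129.97, 1381, 789 and 796 CPM in aged mice.

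The other 3 called binding proteins were less secure. Igfbp2 was at 68.0, 44.2 and 399 CPM in young and 12.9, 72.3, 9.23 and 9.13 CPM in aged mice, so that Aged B lay above Young A and Young B, and Young C was far above all others. Its log2 fold change of -2.35 ± 0.67 (adjusted p = 0.0152) became -0.86 (adjusted p = 0.357) without Young C.
Igfbp4 overlapped as well, with 47.2, 4.92 and 90.9 CPM in young and 11.9, 17.6, 16.9 and 6.28 CPM in aged mice (log2 fold change -1.85 ± 0.46, adjusted p = 0.00697), and missed the threshold without Young C (-1.29, adjusted p = 0.0638). Igfbp6 was at 72.7, 19.7 and 42.2 CPM in young and 11.02, 16.9, 10.8 and 9.13 CPM in aged mice. Its groups did not overlap, and its log2 fold change of -1.96 ± 0.35 (adjusted p = 0.000775) became -1.26 (adjusted p = 0.0822) without Young A.
The 6 fibroblast markers summed to 39.3 to 268 CPM in young and 3.08 to 42.3 CPM in aged myoepithelial cells. In the myoepithelial cells with no UMI of these markers, Igfbp5 (-2.48), Igfbp7 (-1.39), Igfbp3 (1.305) and Igfbp4 (-1.41, adjusted p = 0.0463) were still called, and Igfbp2 (-1.60, adjusted p = 0.0668) and Igfbp6 (-1.005, adjusted p = 0.118) were not. Markers of AV cells, the epithelial type with the most Igfbp5, summed to 659 to 899 CPM in young and 564 to 1183 CPM in aged myoepithelial cells. The receptor gene Igf1r, at 36.8 to 78.6 CPM in young and 25.1 to 44.6 CPM in aged mice, did not pass (log2 fold change -0.58 ± 0.29, adjusted p = 0.147).

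**Figure D2:**
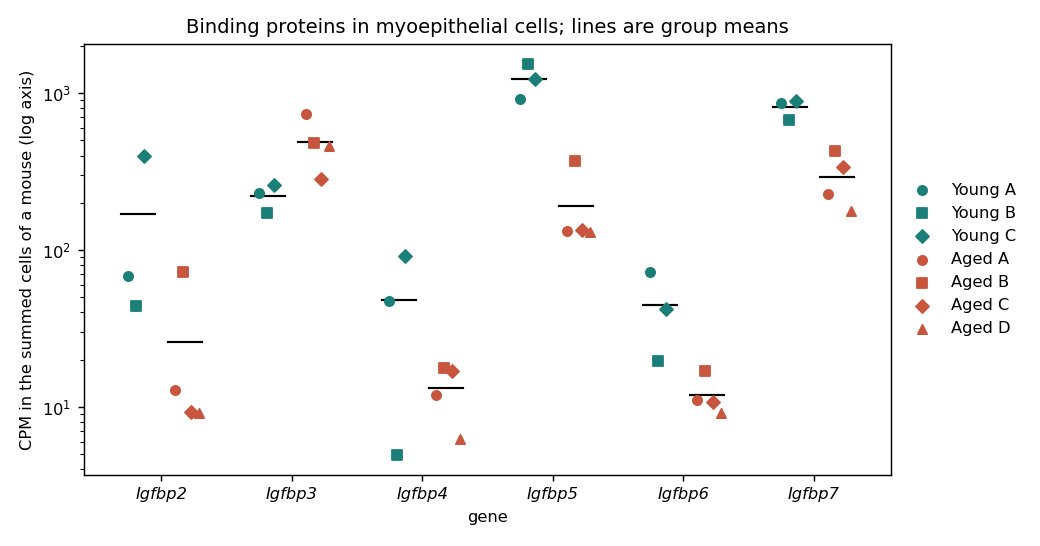
CPM of the 6 binding protein genes in the summed myoepithelial cells of each mouse, on a log axis, with 1 point per mouse and a line at each group mean. Young and aged points are apart for Igfbp3 (higher in aged mice), Igfbp5, Igfbp6 and Igfbp7 (lower), and mixed for Igfbp2 and Igfbp4.

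In luminal cells fewer members changed, and each that was called fell. In AV cells 3 of 8 tested members were called, where 6.16% of 11012 genes tested were called, and the median log2 change was -0.90 over the members and 0.02 over all genes. Igf2r was at 16.2, 16.2 and 16.9 CPM in young and 5.92, 7.77, 4.23 and 3.38 CPM in aged mice, without overlap (log2 fold change -1.35 ± 0.29, adjusted p = 0.0239). The call was lost without Young A, Young B, Young C or Aged C (log2 fold changes of -1.39, -1.35, -1.30 and -1.28, adjusted p = 0.0566 to 0.112), and in cells free of fibroblast UMIs (-1.204, adjusted p = 0.0647).
Igfbp4 (log2 fold change -2.24 ± 0.30, adjusted p = 0.00241) and Igfbp6 (-4.25 ± 0.52, adjusted p = 0.00182) fell from 12.6 to 27.1 and 14.4 to 48.8 CPM in young mice to 2.45 to 4.59 and 0.698 to 3.95 CPM in aged mice. These are genes of fibroblasts, whose 6 markers summed to 46.8 to 223 CPM in young and 2.73 to 11.5 CPM in aged AV cells. In the AV cells without fibroblast UMIs, Igfbp6 was still called (-3.35) and Igfbp4 was not (-1.29, adjusted p = 0.0731).
Igfbp5, the main binding protein of AV cells, was at 507, 2241 and 1928 CPM in young and 609, 784, 426 and 546 CPM in aged mice. Young A lay among the aged mice, and the difference did not pass (log2 fold change -1.15 ± 0.41, adjusted p = 0.123).

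HS cells had 2 called of 5 tested members, where 6.26% of 8457 genes were called; the median log2 change was -1.54 over the members and 0.02 over all genes. Igfbp5 was at 52.8, 62.6 and 94.1 CPM in young and 36.6, 17.5, 5.43 and 29.6 CPM in aged mice, without overlap (log2 fold change -1.54 ± 0.37, adjusted p = 0.0372). That call was lost without Young B, Young C, Aged B or Aged D (-1.60, -1.23, -1.43 and -1.71, adjusted p = 0.0540 to 0.160).
Igfbp6 was nearly absent from aged HS cells, with 2 UMIs in all against 221 in young HS cells, a ratio of 50.03 in CPM (95% exact interval 13.7 to 416, counting error only; adjusted p = 0.000916). Fibroblast markers summed to 21.2 to 105 CPM in young and 1.36 to 8.94 CPM in aged HS cells, and both genes were called in HS cells without fibroblast UMIs (Igfbp5 -1.37, Igfbp6 -4.78). A luminal cell without a marker UMI can still hold Igfbp6 UMIs carried over from fibroblasts. The source of the Igfbp6 UMIs in AV and HS cells was not tested. Whether the age difference of a member was unequal between AV and HS cells was tested directly: 0 of 6 members were called by edgeR, 1 had an unadjusted p under 0.05, and 2.41% of 9838 genes were called.

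The next question was whether the fibroblasts changed their own levels with age. None of the 9 members tested was called in fibroblasts, where 3.17% of 5513 genes were; 3 had an unadjusted p under 0.05, and DESeq2 also called 0. The median log2 change was -0.30 over the members and 0.00 over all genes. The aged sums rest on 121, 41, 15 and 17 cells in mice A to D, against 581, 184 and 1034 in the young mice. In the fibroblasts with no UMI of the epithelial markers, a fit that left out Aged C, no member was called either. That fit rested on 251, 113 and 477 cells in Young A to C and 10, 20 and 3 in Aged A, B and D. Its log2 change was -1.99 for Igfbp5 (adjusted p = 0.0693), -1.16 for Igfbp6 (adjusted p = 0.0704) and -1.22 for Igfbp3 (adjusted p = 0.604).
Igfbp4 was at 999, 1194 and 867 CPM in young and 783, 1352, 924 and 960.0 CPM in aged mice, overlapping throughout (log2 fold change 0.07 ± 0.22, adjusted p = 0.92). Igf1 was at 118, 176 and 156 CPM in young and 124, 127, 127 and 64.0 CPM in aged mice, with overlapping groups (-0.30 ± 0.27, adjusted p = 0.588). Igfbp5 ranged from 1081 to 1346 CPM in young and from 495 to 1709 CPM in aged mice (-0.30 ± 0.33, adjusted p = 0.682).
Igfbp6 was lower in each aged mouse without passing the threshold, at 4047, 4049.6 and 3521 CPM in young and 1807, 3141, 3191 and 2386 CPM in aged mice (-0.48 ± 0.21, adjusted p = 0.221). Igfbp7 was at 1409 to 1823 CPM in young and 1670.4 to 3521 CPM in aged mice (0.57 ± 0.25, adjusted p = 0.224), with Aged A inside the young range. Igfbp3 varied most, at 52.4, 203 and 150.4 CPM in young and 224, 0, 25.3 and 101 CPM in aged mice (-0.16 ± 0.66, adjusted p = 0.94), and the receptor genes Igf1r (-0.31 ± 0.35) and Igf2r (-0.64 ± 0.62) overlapped between the ages.
Igfbp2 was at 52.4, 21.9 and 54.4 CPM in young mice and at 153, 149.6, 0 and 109.7 CPM in aged mice. The 3 aged mice with any UMI were above every young mouse, and the log2 fold change was 1.53 ± 0.45 (adjusted p = 0.0886). It was 1.78 (adjusted p = 0.0140) without Aged C, the mouse at 0, which had 15 fibroblasts. Fibroblasts with 5 Igfbp2 UMIs or more numbered 8, 1 and 11 in Young A to C and 8, 2, 0 and 1 in Aged A to D. The aged values thus rest on few cells.

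Whether the age difference was unequal in fibroblasts and myoepithelial cells was tested with the mouse as a block. Of 9 members 4 were called, each with the higher log2 fold change in fibroblasts, where 4.23% of 7379 genes were called: Igfbp2 (difference of log2 fold changes 3.73 ± 0.61, adjusted p = 0.000237), Igfbp7 (1.77 ± 0.28, adjusted p = 0.000196), Igfbp5 (2.10 ± 0.45, adjusted p = 0.00542) and Igfbp4 (1.76 ± 0.48, adjusted p = 0.0327). The Igfbp4 call was lost without Young A, Young C, Aged A or Aged D (1.68, 1.09, 1.89 and 1.65, adjusted p = 0.0502 to 0.299). Igfbp3, which rose in myoepithelial cells, gave -1.78 ± 0.58 (adjusted p = 0.0776). These terms were not fitted in myoepithelial cells free of fibroblast UMIs, in which the age call of Igfbp2 was lost.

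Within fibroblasts the axis divided along a known split of tissue fibroblasts, marked by Pi16 and Dpp4 (adventitial cells) and by Col15a1 (cells of the interstitium). A cell was placed in the former class with a UMI of Pi16 or Dpp4 and none of Col15a1 (1148 cells), and in the latter the other way round (398 cells), while 207 cells had both and 240 neither. The 3 genes of the rule were left out of the fit, which paired the classes within Young A, Young B, Young C and Aged A, the mice with at least 10 cells of each. Of 9 members 6 were called, where 18.5% of 5570 genes were called.
Igfbp5 and Igfbp6 were higher in the Pi16 or Dpp4 class and Igfbp7 in the Col15a1 class. Igfbp5 was at 1938, 1753, 1926 and 1772 CPM in the former and 166, 252, 251 and 302 CPM in the latter, in the order of mice above (log2 difference 3.04 ± 0.19, adjusted p = 1.42e-09). Igfbp7 was at 553, 538, 634 and 1156 CPM in the former and 3091, 3906, 3459.8 and 2193 CPM in the latter (-2.21 ± 0.22, adjusted p = 5.32e-07). Neither pair of classes overlapped.
Igfbp6 was above in the Pi16 or Dpp4 class in each mouse, at 2502 to 5623 CPM against 826 to 2086 CPM (1.61 ± 0.12, adjusted p = 2.37e-08), as was Igfbp4, at 896 to 1449 CPM against 381 to 789.9 CPM (0.86 ± 0.16, adjusted p = 0.000437). Igfbp2 (-2.03 ± 0.55, adjusted p = 0.0114) and the ligand Igf1 (-0.64 ± 0.22, adjusted p = 0.0467) were lower in that class. Igfbp2 was lower in 3 of 4 mice, at 0.749, 4.77 and 8.91 CPM against 50.5, 176 and 19.2 CPM in the young mice but 127 against 95.3 CPM in Aged A, and its call was lost without Young B (-1.46, adjusted p = 0.110).
The Igf1 call was lost without Young A, Young C or Aged A (-0.73, -0.61 and -0.54, adjusted p = 0.0560 to 0.296), and in Young B the classes were level, at 135 and 132 CPM.

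**Figure D3:**
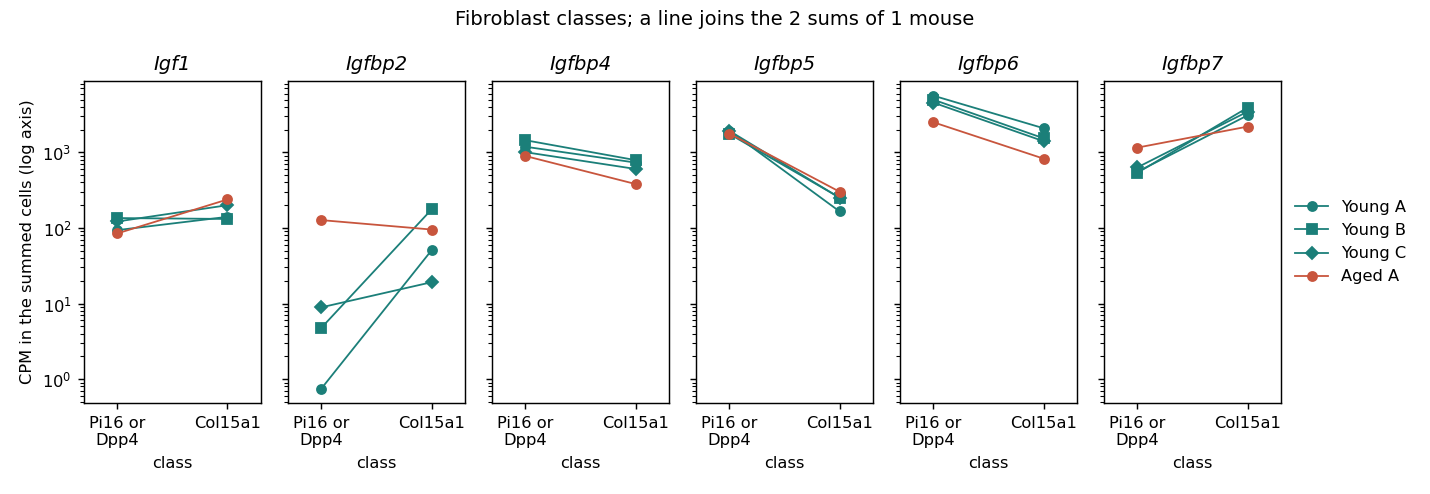
CPM of the 6 called members in the Pi16 or Dpp4 class and the Col15a1 class of fibroblasts, on log axes, with a line joining the values of 1 mouse. Lines for Igfbp4, Igfbp5 and Igfbp6 fall from the Pi16 or Dpp4 class to the Col15a1 class in 4 of 4 mice, and those for Igfbp7 rise.

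Vessels were the other site of change. In vascular endothelial cells 5 of 9 members were called, where 26.7% of 7864 genes were called; the ligands Igf1 and Igf2 and the binding protein gene Igfbp4 rose, and the receptor gene Igf1r and Igfbp3 fell. The median log2 change was -0.35 over the members and -0.05 over all genes.
Igfbp4 was at 213, 126 and 165 CPM in young and 391, 705, 578 and 662 CPM in aged mice, without overlap (log2 fold change 2.15 ± 0.22, adjusted p = 1.51e-05). The share of cells with an Igfbp4 UMI after thinning was 17.99% to 28.3% in young and 45.0% to 67.7% in aged mice. Igf1 rose from 42.8, 47.4 and 59.1 CPM to 64.6, 68.4, 70.4 and 92.0 CPM, every aged mouse lying above every young one (0.97 ± 0.20, adjusted p = 0.00317). In CPM the Igf1 rise was smaller than this fold change, which includes the TMM scaling. The group means of CPM lay slightly less than 1.5-fold apart, so the fold limit was met only with that scaling.
Igf1r fell from 52.5, 51.7 and 49.5 CPM to 17.0, 21.0, 16.0 and 24.8 CPM, with little spread inside either group (-0.999 ± 0.21, adjusted p = 0.0026). Igfbp3 was at 26.7, 45.2 and 46.7 CPM in young and 10.6, 9.08, 17.8 and 12.1 CPM in aged mice, also without overlap (-1.29 ± 0.29, adjusted p = 0.005). Igf2 was at 1.46, 1.63 and 6.87 CPM in young and 1.06, 41.2, 21.4 and 14.0 CPM in aged mice (3.33 ± 0.78, adjusted p = 0.00577). Aged A lay below all young mice, so the rise in Igf2 was seen in 3 of 4 aged mice, and without Aged B or Aged D the gene did not pass the filter on low counts.
The dominant Igfbp7 was at 5371, 4008 and 4398 CPM in young and 4142, 4322, 3988 and 4152 CPM in aged mice, with overlapping groups (0.21 ± 0.13, adjusted p = 0.242). Its mean CPM was lower in aged mice (4151 against 4592), so the sign of this small change depended on the TMM scaling. Igfbp5 did not pass (-1.37 ± 0.55, adjusted p = 0.0783) but did without Young A (-1.88, adjusted p = 0.0128), and was -0.23 (adjusted p = 0.631) without Young C, which was at 175 CPM against 14.7 to 41.9 CPM in the other 6 mice. Fibroblast markers summed to 35.4 to 150 CPM in young and 10.2 to 22.2 CPM in aged vascular endothelial cells, and in the cells without their UMIs the 5 members were still called (Igfbp4 2.09, Igf1 0.91, Igf2 4.21, Igf1r -0.95, Igfbp3 -1.51), with Igfbp5 added (-1.93, adjusted p = 0.0270).

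**Figure D4:**
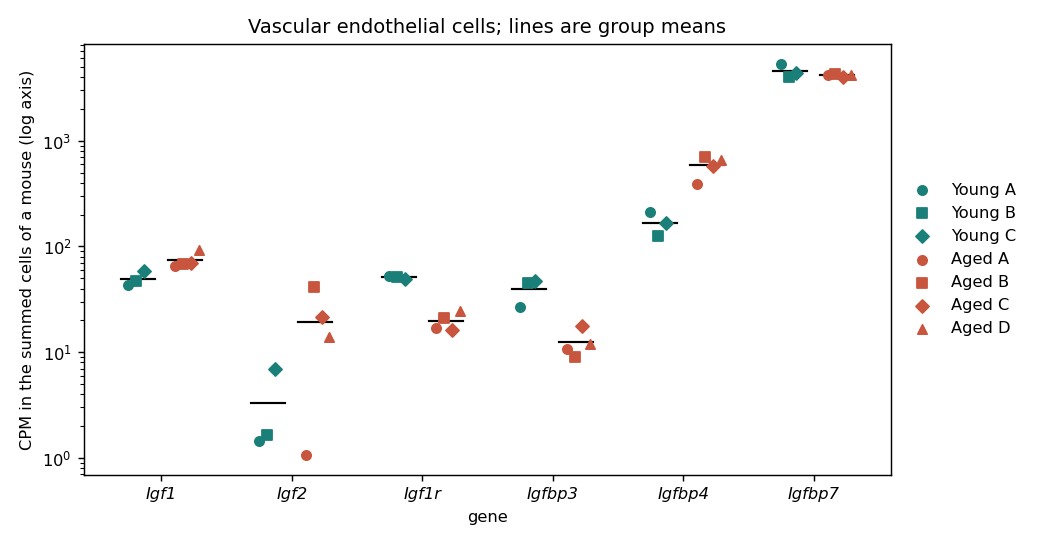
CPM of the 5 called members and Igfbp7 in the summed vascular endothelial cells of each mouse, on a log axis, with 1 point per mouse and a line at each group mean. Aged points lie above young ones for Igf1 and Igfbp4 and below them for Igf1r and Igfbp3, and Igfbp7 stays between 3988 and 5371 CPM in all 7 mice.

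Pericytes, the mural cells beside the endothelium, gave 0 called of 5 tested members, where 11.8% of 2601 genes were called; 2 members had an unadjusted p under 0.05 and DESeq2 called 0. Igfbp7 was at 6645, 7049 and 7463 CPM in young and 5163, 8143, 4953 and 7573 CPM in aged mice (log2 fold change 0.04 ± 0.20, adjusted p = 0.933), with full overlap. Igfbp4 was at 278 to 497 CPM in young and 328 to 775 CPM in aged mice (0.77 ± 0.29, adjusted p = 0.09) and passed without Aged B (0.98, adjusted p = 0.0288), as did Igfbp5 without Aged C (0.78, adjusted p = 0.0433, from 0.57 ± 0.26, adjusted p = 0.171).
Igf2 was too low for the filter in pericytes, at 30.1, 34.0 and 59.4 CPM in young and 8.42, 5.30, 11.3 and 8.58 CPM in aged mice from 50 UMIs, and these groups did not overlap. With no filter on low counts it was called lower in aged pericytes (-2.11 ± 0.62, adjusted p = 0.0235), as was Igfbp6 (-2.42 ± 0.65, adjusted p = 0.00966); fibroblast markers summed to 303 to 366 CPM in young and 22.6 to 120 CPM in aged pericytes.

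The age difference was unequal between pericytes and vascular endothelial cells for 4 of 9 members, where 9.6% of 7207 genes were called (pericyte minus endothelial difference of log2 fold changes, mouse as a block). For Igf2 the cell types moved apart, with -5.31 ± 0.75 (adjusted p = 1.75e-05). The term was -1.41 ± 0.29 for Igfbp4 (adjusted p = 0.00206), -1.81 ± 0.53 for Igf1 (adjusted p = 0.0286) and 1.58 ± 0.41 for Igfbp5 (adjusted p = 0.0118). The Igf1 call was lost without Young A, Young B, Aged A, Aged B or Aged D (-1.85, -1.73, -1.49, -1.41 and -1.78, adjusted p = 0.0722 to 0.127) and the Igfbp5 call without Young C (0.87, adjusted p = 0.125).
Between fibroblasts and vascular endothelial cells, 2 of 10 members were called, where 5.62% of 8599 genes were called: Igfbp4 (fibroblast minus endothelial -2.07 ± 0.26, adjusted p = 4.97e-05) and Igf1 (-1.17 ± 0.32, adjusted p = 0.0326). The Igf1 call was lost without Young B (-1.12, adjusted p = 0.0691) or Aged C (-1.26, adjusted p = 0.0517). These comparisons share the vascular endothelial sums and were not repeated in cells without fibroblast UMIs. Such UMIs were met in 39.4% to 63.6% of young and 10.7% to 25% of aged pericytes. In Mb macrophages no member passed the filter on low counts; 1.16% of 859 genes were called there.

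When all cells of a mouse were summed, so that level and cell composition were mixed, 5 of 10 members were called, each lower in aged mice, where 32.7% of 12983 genes were called (median log2 change -0.81 over the members and 0.00 over all genes). In such sums, fewer cells of a type and less RNA per cell cannot be told apart. Igfbp6 fell from 926, 542 and 1078 CPM to 109, 38.2, 27.0 and 27.5 CPM (-3.77 ± 0.51, adjusted p = 0.00176), and Igf1 from 39.8, 41.6 and 55.1 CPM to 15.7, 10.2, 11.6 and 17.0 CPM (-1.41 ± 0.23, adjusted p = 0.00329). Both were separated by age in these sums of captured cells. In fibroblasts neither was called, but Igfbp6 was separated by age there too. With no filter on low counts it was called in fibroblasts (-0.74 ± 0.21, adjusted p = 0.0176).
Igf2r (-1.202 ± 0.28, adjusted p = 0.0109), Igfbp4 (-1.14 ± 0.20, adjusted p = 0.0037) and Igfbp7 (-0.79 ± 0.25, adjusted p = 0.0371) were also lower. The Igfbp7 call was lost without Young A, Young B, Aged A, Aged B or Aged C (-0.63, -0.64, -0.77, -0.74 and -0.77, adjusted p = 0.0699 to 0.123). Igfbp4 thus fell in the sum of all cells, at 216 to 306 CPM in young and 83.4 to 120.3 CPM in aged mice, and rose in vascular endothelial cells.

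The cell types that held the transcripts differed by age. Fibroblasts held 78.0 ± 10.7% of the Igfbp4 UMIs in young mice (n = 3) and 20.0 ± 18.3% in aged mice (n = 4), and for Igf1 68.3 ± 15.0% and 17.4 ± 18.4%. For Igfbp5 the shares were 46.6 ± 11.3% and 5.07 ± 5.88% and for Igfbp3 53.4 ± 27.0% and 3.90 ± 6.43%. Only Igfbp6 kept most of its UMIs in fibroblasts at both ages, at 97.0 ± 0.98% and 89.3 ± 4.04%.
By an exact two-sided permutation test over the 35 divisions of the mice, the share of Igfbp3, Igfbp5, Igf1r and Igf2r in fibroblasts gave p = 0.0286, the smallest value this design allows, and that of Igf1, Igfbp4, Igfbp6 and Igfbp7 p = 0.0571. Over the 10 members none passed after adjustment (lowest Benjamini-Hochberg adjusted p = 0.0714, exact permutation test), although each mean was lower in aged mice.
In aged mice vascular endothelial cells held 37.7% to 79.7% of Igf1 UMIs and 38.0% to 80.8% of Igfbp4 UMIs, myoepithelial cells 75.6% to 96.1% of Igfbp3 UMIs and AV cells 79.9% to 90.7% of Igfbp5 UMIs. As a share of all cells, AV cells went from 11.7 ± 3.07% in young to 55.9 ± 6.97% in aged mice and myoepithelial cells from 4.46 ± 3.42% to 17.8 ± 6.73%, while vascular endothelial cells were at 17.7 ± 12.4% and 12.5 ± 2.72%.

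**Figure D5:**
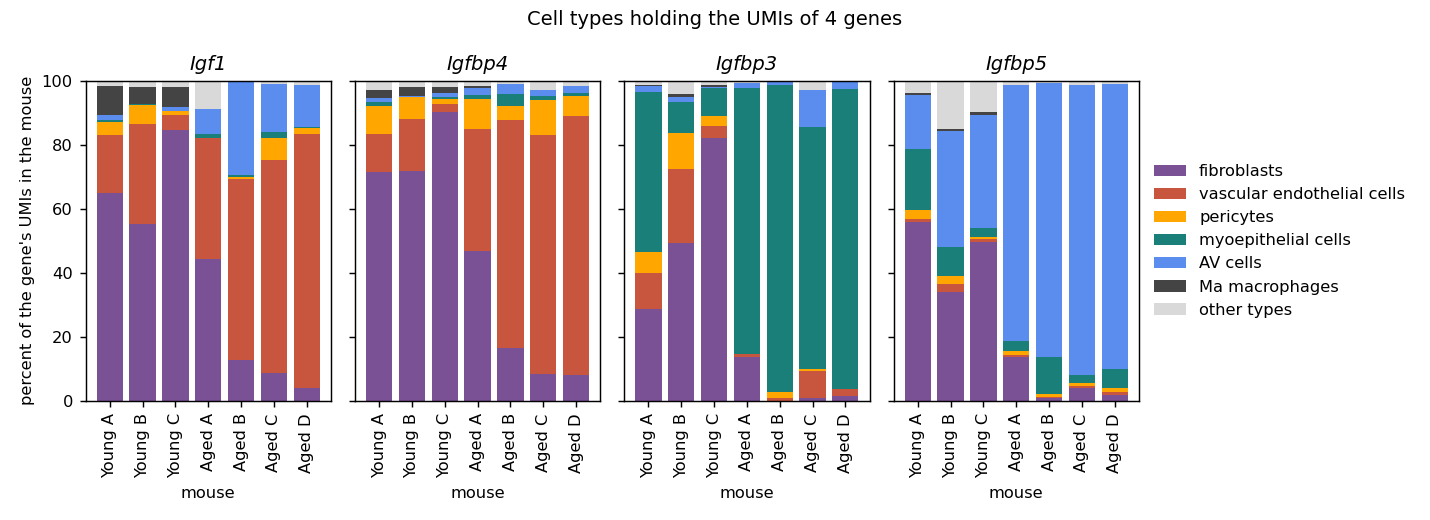
Percent of the UMIs of Igf1, Igfbp3, Igfbp4 and Igfbp5 of each mouse held by the main cell types, stacked to 100%. The fibroblast part is large in the 3 young mice (Igfbp4 78.0%, Igf1 68.3% on average) and smaller on average in the 4 aged mice (20.0% and 17.4%), in which it reaches 46.8% and 44.4% in Aged A.

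Beyond the members, a list of 45 other genes of the pathway (insulin and growth hormone receptors, proteases of the binding proteins and their inhibitors, and the signalling chain below the receptor) was read in the same fits. Over the sum of all cells 4 of 37 tested genes of the list rose and 5 fell, where 32.7% of all genes were called. In pericytes 1 of 10 fell (11.8% of all genes called), and between the fibroblast classes 3 of 22 were higher and 3 lower in the Pi16 or Dpp4 class (18.5% of all genes called). In vascular endothelial cells 7 of 25 tested genes rose and none fell, a share close to the 26.7% of all genes called there. The genes with the largest change were Stat5a, a transcription factor of cytokine and growth hormone signalling (16.9 ± 3.36 to 51.7 ± 9.41 CPM, log2 fold change 1.99 ± 0.24, adjusted p = 5.07e-05), the tyrosine phosphatase gene Ptpn1 (90.3 ± 6.66 to 215 ± 38.8 CPM, 1.62 ± 0.19) and Socs2, a feedback inhibitor of growth hormone signalling (185 ± 28.9 to 409 ± 137 CPM, 1.49 ± 0.23), and all 3 were called whichever mouse was left out.
The stanniocalcins Stc1 and Stc2, inhibitors of pappalysin, moved by cell type. Stc1 rose in vascular endothelial cells, from 45.2 to 68.7 CPM in young to 67.8 to 176 CPM in aged mice (1.46 ± 0.28, adjusted p = 0.00169), and fell in pericytes, from 99.4 to 142 CPM to 21.2 to 67.4 CPM (-1.38 ± 0.33, adjusted p = 0.0173), the latter call being lost without Young B (-1.26, adjusted p = 0.0694) or Aged B (-1.09, adjusted p = 0.0560) and in cells without fibroblast UMIs (-1.44, adjusted p = 0.0576). The difference between both types was itself called (-2.87 ± 0.37, adjusted p = 4.92e-06), together with those of Socs2, Stat5a, Ptpn1 and the insulin receptor gene Insr, 5 of 26 genes tested (9.6% of all genes called); that of Stat5a was lost without Young A (-1.72, adjusted p = 0.140) and that of Insr without Young B (-1.36, adjusted p = 0.0589).
Stc2 was highest in HS cells, at 612 ± 237 CPM (n = 7), where its age difference did not pass (434 ± 24.6 to 745 ± 239 CPM, log2 fold change 0.92 ± 0.28, adjusted p = 0.0774), and fell in AV cells from 31.5 ± 5.10 to 6.11 ± 2.29 CPM (-2.06 ± 0.31, adjusted p = 0.00413); the age difference was unequal between both (AV minus HS -2.98 ± 0.25, adjusted p = 1.36e-06). In AV cells Igf2bp3 (-1.85 ± 0.25), an RNA-binding protein gene, and the protease gene Htra1 (-1.80 ± 0.40, adjusted p = 0.0269) also fell, making 3 of 32 genes (6.16% of all genes called); Htra1 was lost without Young A, Young B, Young C, Aged C or Aged D (-1.73, -1.74, -1.94, -1.77 and -1.82) and in AV cells without fibroblast UMIs (-1.12, adjusted p = 0.284).

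In myoepithelial cells 2 of 24 list genes rose and 3 fell, where 27.6% of all genes were called. Pappa, the gene of pappalysin, was at 40.9 ± 13.5 CPM in young and 17.0 ± 4.11 CPM in aged mice (-1.02 ± 0.31, adjusted p = 0.0236), lost without Young C (-0.69, adjusted p = 0.159) and in cells without fibroblast UMIs (-0.94, adjusted p = 0.0526). Myoepithelial cells held the highest mean of Pappa, at 27.2 ± 15.3 CPM. The largest changes were those of the adapter gene Grb14 (-1.79 ± 0.54), Stc2 (-1.43 ± 0.46) and the kinase gene Akt2 (1.21 ± 0.32), each lost without Young A (-2.17, -1.53 and 0.80), Grb14 also without Young B (-1.75) or Young C (-1.59) and Stc2 without Young C (-1.28).
In fibroblasts 1 of the 23 list genes tested was called lower in aged mice (3.17% of all genes called). H19, a maternally expressed RNA beside Igf2, had 233 UMIs in young fibroblasts (25.1 ± 5.41 CPM, n = 3) and 0 in aged fibroblasts, at least 8.62-fold higher in young ones with a limit of 3 UMIs over the aged group (adjusted p = 0.00996), and the call was lost without Aged A (adjusted p = 0.0946). Insr was highest in pericytes (64.8 ± 34.5 CPM) and vascular endothelial cells (52.1 ± 12.1), and the growth hormone receptor gene Ghr in fibroblasts (50.1 ± 28.5).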

How the data were processed

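Mammary glands of 3 young and 4 aged mice were profiled by droplet scRNA-seq, and the groups and letters follow the sample titles. Per the file headers and the submitters' notes, the authors made UMI counts per gene and cell with Cell Ranger 2.0 (mm10), filtered the cells and deposited the raw counts with a cell type for each cell. The deposited cells were used as given and no doublet caller was run.

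UMI counts were summed per mouse and type (at least 3 cells) and tested in R 4.3.3 with edgeR 4.0.16 (filterByExpr, TMM, glmQLFTest) and limma 3.58.1, with DESeq2 1.42.0 as an alternative. Calls needed an adjusted p under 0.05 and 1.5-fold. Interaction and class fits had the mouse as a block, with at least 10 cells per class. Where stated, each cell was thinned to 2000 UMIs before cells with a UMI were counted. Scripts were tested on simulated data. Levels, shares and permutation tests used Python 3.11.15, scipy 1.17.1 and pandas 2.3.3.

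The members and gene lists were chosen with earlier results of these data known. Named genes were all members, up to 3 called list genes per cell type with the largest change, Insr, Ghr, Pappa, Stc1 and Stc2, and the 3 genes most alike in distribution; 1 gene of the list is not reported here. Alternatives covered the test, scaling, filter, fold, letter block, each mouse, cell minimum, cells without fibroblast or epithelial marker UMIs and depth. Promoters came from RefSeq (GRCm38.p6).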

Additional observations from a re-analysis of the deposited data

Results flagged for a closer look

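Among 54 groups of 4 aged values, 13 held a mouse past Dixon's 95% limit for its distance from the other 3. The limit lets about 1 in 20 pass for independent normal values, which these were not. The sums over all cells share cells with the other groups, and a group with a single nonzero value always passes. The count is therefore a description. In fibroblasts, Igf1 was low in Aged D (64.0 CPM, 17 cells) and Igfbp7 high in Aged B (3521 CPM, 41 cells). In myoepithelial cells Aged B was high for Igfbp5 (370.3 CPM) and Igfbp2 (72.3 CPM). In vessels, Aged D was high for Igf2r in vascular endothelial cells (20.3 CPM) and low for it in pericytes (8.58 CPM), and Aged B was high for Igfbp3 in pericytes (127 CPM). In sums of 3 to 9 Mb macrophages, a single aged mouse had any UMI of Igf1 (Aged A, 118 CPM), Igf1r (Aged C, 77.4 CPM) or Igfbp7 (Aged D, 41.0 CPM), and in T and B cells Aged C was high for Igfbp3 (118.5 CPM). Over all cells Aged A was high for Igfbp6 (109 CPM) and Aged D for Igfbp7 (782 CPM).

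The age difference was unequal between cell types, by the interaction term of the edgeR quasi-likelihood test, for 10 pairs of member and comparison. Fibroblast minus vascular endothelial terms were -1.17 for Igf1 and -2.07 for Igfbp4. Fibroblast minus myoepithelial terms were 3.73 for Igfbp2, 1.76 for Igfbp4, 2.10 for Igfbp5 and 1.77 for Igfbp7. Pericyte minus vascular endothelial terms were -1.81 for Igf1, -5.31 for Igf2, -1.41 for Igfbp4 and 1.58 for Igfbp5.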

How the results depend on the processing

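The 37 calls of members were recomputed under 453 settings in all, of which 406 kept the call, 47 kept the direction but lost the call and 0 changed direction. Among the 406, fits with no fold minimum could only keep a call, and those with at least 10 cells per mouse reused the same sums. Fits in which the gene did not pass the filter on low counts were not counted, as for Igf2 in vascular endothelial cells without Aged B or Aged D and Igfbp6 in thinned HS cells. For 19 age results of members not called in myoepithelial cells, fibroblasts, vascular endothelial cells and pericytes, 277 settings gave 9 calls and 19 changes of direction. Results not called elsewhere were not followed. The label letters were not used to pair the mice in the main fits. Correlations of same-letter deviations ran from -0.17 to 0.09, apart from 0.37 for letter A in Mb macrophages. With the letter as a replicate block, 1 member was called in HS cells and 3 over all cells, and the log2 change was 0.072 for Igfbp6 in vascular endothelial cells and -0.093 for Igfbp7 in pericytes. Thinned cells gave 0 calls in HS cells and log2 changes of 0.17 for Igfbp3 in fibroblasts, 0.0051 for Igf2r in vascular endothelial cells and -0.088 for Igfbp7 in pericytes. Cells without fibroblast marker UMIs gave 1 call in AV cells, 0.90 for Igfbp6 in vascular endothelial cells and -0.11 for Igfbp7 in pericytes. With no filter on low counts, 2 members were called in fibroblasts (Igfbp2 and Igfbp6), 2 in pericytes (Igf2 and Igfbp6) and 3 in Mb macrophages (Igf1, Igfbp5 and Igfbp7, from few UMIs), and the log2 change was -0.18 for Igfbp4 in fibroblasts and -0.10 for Igfbp7 in pericytes. The cause of these changes was not tested. The highest type became NK cells for Igf1 (118 CPM), vascular endothelial cells for Igf2 (19.4 CPM) and fibroblasts for Igfbp2 (103 CPM) in aged mice alone, and lymphatic endothelial cells for Igf2r (52.8 CPM) and AV cells for Igfbp5 (1559 CPM) in young mice alone. Leaving out each mouse gave 1 to 2 calls in HS cells, 0 to 1 in fibroblasts and in pericytes, and 1 to 2 in fibroblasts against vascular endothelial cells. The log2 change then ran from -1.74 to 0.25 for Igfbp3 and from -0.10 to 0.22 for Igfbp4 in fibroblasts, from -0.81 to 0.0094 for Igfbp6 in vascular endothelial cells and from -0.086 to 0.15 for Igfbp7 in pericytes. DESeq2 gave no call for Igfbp2 in myoepithelial cells, nor for Igf1 and Igfbp2 between the fibroblast classes. At least 10 cells per mouse could not be run for Mb macrophages, which had fewer in each aged mouse, and fibroblasts without epithelial UMIs left out Aged C. The aged sums of fibroblasts rest on 15 to 121 cells per mouse.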
